A study of Homo sapiens with 33 samples.

Results

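Described here are 45 genes of the amino acid response and of tRNA charging in cell lines of anaplastic large cell lymphoma. This lymphoma of T cells, abbreviated ALCL, is often driven by a fusion of the receptor tyrosine kinase ALK. The genes were chosen by name: 17 cytosolic aminoacyl-tRNA synthetases, 12 enzymes, 10 transcription factors and stress regulators, and 6 amino acid transporters. Most of the enzymes make or convert serine, glycine, asparagine, proline or cysteine, and CHAC1 and PCK2 are counted with them. A gene was followed through the probe sets whose platform annotation gives its symbol alone. Of the 45 genes, 42 had such a probe set, 65 probe sets in all, out of 11963 genes and 19065 probe sets of the array. MARS1 and QARS1 had probe sets of several symbols only and SESN2 was not matched, so these 3 were not analysed here. CBS and VLDLR did not pass a filter on low signal, which left 40 genes tested in each experiment.

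The series holds 33 Affymetrix human genome arrays in 11 groups of 3. In the hairpin experiment, TS cells (a subclone of the ALCL line Sup-M2) and Su-DHL1 cells carried a lentiviral short hairpin, A5, that targets ALK and is switched on by doxycycline. The hairpin groups were TS with A5 and doxycycline at 84 h, TS with the mutated hairpin A5M and doxycycline at 84 h, TS with A5 and no doxycycline at 84 h, TS with A5 with and without doxycycline at 72 h, and Su-DHL1 with A5 with and without doxycycline at 72 h. All of these cells had also been given a doxycycline-controlled repressor (tTR-KRAB, marked by DsRed), were sorted for GFP and DsRed after a short induction, and were sorted again to remove cells that were green without the inducer; uninduced cells therefore carry the same vectors. A5M without doxycycline is not among the groups, so the mutated hairpin, its cell population and doxycycline cannot be told apart in the A5M group. In the compound experiment, TS cells were kept for 6 h with A2 or A3 (named as ALK inhibitors) or A1, each at 300 nM, or served as the group U. The design text calls A1 a mock compound while its sample descriptions call it an ALK inhibitor, and U is untreated by its descriptions and given diluent by the design text. Whether the 3 arrays of a group came from separate cultures is not given in the labels. The p-values therefore describe the spread among these arrays only, which may be technical, and 3 arrays a group limit the precision.

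When a cell runs short of an amino acid, uncharged tRNA activates the kinase GCN2, which phosphorylates eIF2; misfolded protein in the endoplasmic reticulum (ER) does the same through PERK. General translation then slows while the transcription factor ATF4 is made in larger amounts. It switches on synthetases, transporters and synthesis enzymes, together with the factor CHOP (DDIT3) and the enzyme CHAC1. Many of the same genes serve growth, and in lymphocytes the transporters SLC7A5 and SLC1A5 rise when a cell is activated to divide.

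Signals are the authors' MAS5 values, scaled so that each array's trimmed mean lay between 200.06 and 200.08. Replicate arrays correlated at 0.969 to 0.985 on the log2 scale. ALK itself gave 201.1, 253.9 and 289 in hairpin cells at 84 h, against 1667.2, 1652 and 1739 with the mutated hairpin and 1927.3, 2090.7 and 2100.3 without doxycycline, so the targeted gene was low where the labels place the active hairpin. At 72 h it gave 314.6, 287.3 and 388.6 in hairpin TS cells, against 1817.6, 1806.4 and 1843.6 in uninduced ones, and 631.3, 651.3 and 629 in hairpin Su-DHL1 cells, against 2745.3, 2967.3 and 3183.9 in uninduced ones, again without overlap. Of 14 T-cell and ALCL markers TNFRSF8 (CD30), ALK, GZMB, PRF1, IL2RA, CD3D and PTPRC were at or over each array's 40th percentile on 33 arrays. CD5 and CD3E reached it on 32 and 31 arrays, CD4 and CD2 on 25 and 18, CD247 and CD3G on 6 and 2, and CD7 on 0. Of 7 B-cell markers CD79B and CR2 reached it on 0 arrays, MS4A1, CD79A and PAX5 on 7 to 11, and BLK and CD22 on 30 and 32. Of 8 myeloid markers CD14, LYZ and FCGR1A reached it on 0 arrays, S100A8 and S100A12 on 22 and 25, and CSF1R, CD163 and ITGAM on 33. The ACTB 3'/5' ratio, a measure of RNA quality, was 1.27 ± 0.02 in hairpin cells at 84 h, 1.52 ± 0.08 with the mutated hairpin and 1.54 ± 0.05 without doxycycline (SD, n = 3 each). It was 1.05 ± 0.03 with A2, 1.06 ± 0.16 with A3, 1.33 ± 0.07 with A1 and 1.18 ± 0.12 in U, so that it moved with the groups in both experiments. In bulk cultures, fewer cells that express a gene and less RNA per cell cannot be told apart.

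Promoters are shown first because ATF4 acts through a short composite element, CARE, and because CHAC1, ASNS and several synthetases hold its letters near their start. RefSeq windows of 300 bases, 250 before and 50 after the first listed start of a gene (build GRCh38.p14), were at hand for 37 of the 45 genes. The letters TGATGNAA, searched on both strands, occurred in 11 of these 37 windows (29.7%) and in 1003 of all 27305 windows (3.67%). The 11 genes were AARS1, ASNS, CARS1, CHAC1, HERPUD1, IARS1, MARS1, NARS1, SLC3A2, SLC7A1 and TARS1. The ER stress element, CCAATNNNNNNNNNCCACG, occurred in 1 of the 37 (XBP1) and in 22 of all windows (0.08%), and its second form, ATTGGNCCACG, in 1 (HERPUD1) and in 15 of all (0.05%). The genes were chosen by name, many of them as known genes of this response, and the 27305 windows are not limited to genes tested here. The shares therefore describe the windows and are not a test. A match is a run of letters and not a shown binding site. Below are the 250 bases before the start, 5′ to 3′ on the gene's strand, with the matched letters in capitals, for the genes called in the average of the hairpin settings that hold a match before the start (CHAC1 and HERPUD1 higher, XBP1 and IARS1 lower), and for ASNS, which was added after its values were seen.
CHAC1, chr15:40953221-40953470, plus strand: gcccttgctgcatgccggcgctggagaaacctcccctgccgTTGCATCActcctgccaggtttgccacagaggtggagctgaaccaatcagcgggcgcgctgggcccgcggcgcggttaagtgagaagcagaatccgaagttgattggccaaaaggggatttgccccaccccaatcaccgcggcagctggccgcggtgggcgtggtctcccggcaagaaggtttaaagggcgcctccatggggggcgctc
HERPUD1, chr16:56931892-56932141, plus strand: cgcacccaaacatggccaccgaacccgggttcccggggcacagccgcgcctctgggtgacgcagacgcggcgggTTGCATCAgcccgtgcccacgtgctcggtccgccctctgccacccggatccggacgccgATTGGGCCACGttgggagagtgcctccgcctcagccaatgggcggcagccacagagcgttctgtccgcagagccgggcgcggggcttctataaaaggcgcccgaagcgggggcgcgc
XBP1, chr22:28800570-28800819, minus strand: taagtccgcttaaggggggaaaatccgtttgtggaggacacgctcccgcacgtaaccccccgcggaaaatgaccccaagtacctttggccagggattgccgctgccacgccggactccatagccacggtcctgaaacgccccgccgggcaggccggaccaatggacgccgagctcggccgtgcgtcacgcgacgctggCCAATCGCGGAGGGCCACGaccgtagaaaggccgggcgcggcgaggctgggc
IARS1, chr9:92293698-92293947, minus strand: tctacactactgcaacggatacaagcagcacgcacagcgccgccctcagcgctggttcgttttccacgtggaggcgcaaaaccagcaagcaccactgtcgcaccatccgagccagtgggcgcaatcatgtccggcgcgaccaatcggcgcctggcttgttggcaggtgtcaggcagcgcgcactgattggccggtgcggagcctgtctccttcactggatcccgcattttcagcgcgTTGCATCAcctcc
ASNS, chr7:97872409-97872658, minus strand: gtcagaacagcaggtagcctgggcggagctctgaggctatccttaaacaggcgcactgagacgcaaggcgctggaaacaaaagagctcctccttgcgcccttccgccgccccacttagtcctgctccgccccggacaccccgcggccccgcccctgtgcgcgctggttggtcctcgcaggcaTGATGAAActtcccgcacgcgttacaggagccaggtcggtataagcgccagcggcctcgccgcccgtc
In CHAC1, HERPUD1 and IARS1 the capitals that read TTGCATCA are CARE on the opposite strand, in ASNS it lies on the gene's own strand, and HERPUD1 also holds the second ER stress element.

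**Figure D1:**
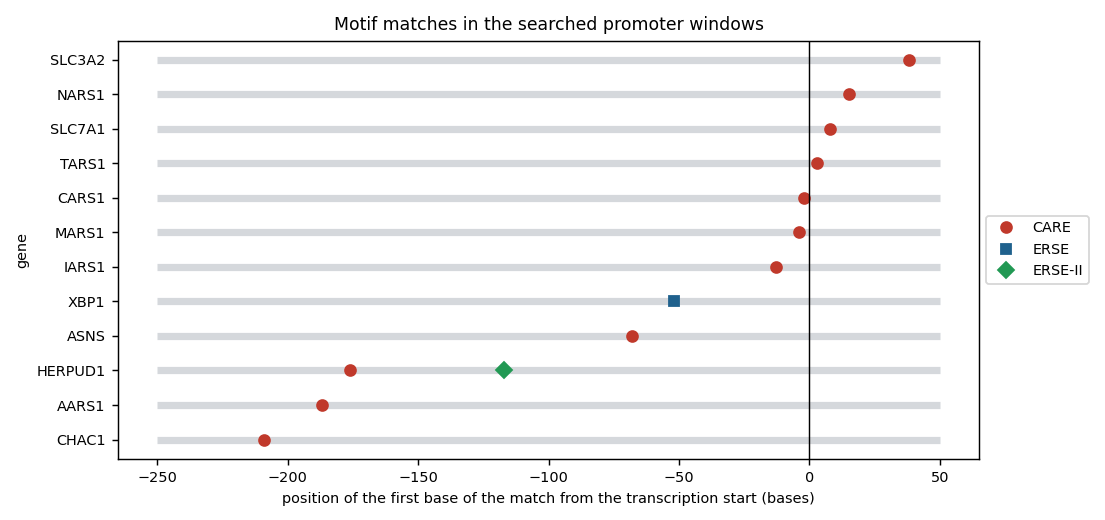
Position of each motif match (first base, in bases from the transcription start at 0) in the windows of the 12 genes that hold one, with circles for CARE, a square for the ER stress element and a diamond for its second form. Matches lie between -209 in CHAC1 and 38 in SLC3A2, and HERPUD1 is the gene with matches to 2 motifs.

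Cells with the induced ALK hairpin were first compared with uninduced cells of the same population. Doxycycline, the hairpin and low ALK go together in this comparison and cannot be told apart by it. In TS cells at 84 h, 4 of the 40 genes were higher and 20 lower in hairpin cells (limma on log2(signal + 11), Benjamini-Hochberg adjusted p under 0.05), where 21.8% of all 9101 genes tested were called higher and 18.8% lower. The median log2 fold change was -0.28 over the 40 genes and 0.06 over all genes. At 72 h in TS cells 5 were higher and 9 lower (all genes 18.9% and 15.2%), and in Su-DHL1 cells at 72 h 6 were higher and 7 lower (13.9% and 10.7%). Averaged over the 3 settings, 7 were higher and 16 lower (29.1% and 21.7%), with a median of -0.07 against 0.07 over all genes. Because 11 is added to every signal before the logarithm, changes of dim genes are understated. Differences below are log2 values, and ± gives a standard error where no SD is named.

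Among the synthetases, which join each amino acid to its tRNA, 8 of 15 fell and 2 rose at 84 h. YARS1 (tyrosine) gave 750.5, 883 and 846.1 in hairpin cells, against 1702.2, 1586.5 and 1772.2 in uninduced cells, a difference of -1.02 ± 0.09 (limma adjusted p = 9.55e-10). KARS1 (lysine) gave 1326.1, 1424 and 1383.7 in hairpin cells, against 2642, 2908.1 and 2475.3 in uninduced cells, -0.95 ± 0.07 (limma adjusted p = 2.3e-10). Neither gene's groups overlapped. At 72 h KARS1 gave 1778.6, 1655.3 and 1704.8 in hairpin TS cells, against 2598, 2585 and 2693 in uninduced ones, and in Su-DHL1 1494.2, 1454.3 and 1486.9 in hairpin cells, against 2061.7, 1920 and 2054.5 in uninduced ones. KARS1 was thus lower without overlap in each of the 3 settings, with differences of -0.61 at 72 h in TS and -0.44 in Su-DHL1. YARS1 gave 1313, 1218.6 and 1241.9 in hairpin TS cells at 72 h, against 1832.1, 1650.5 and 1640.2 in uninduced ones, and 912.6, 947.3 and 1017.5 in hairpin Su-DHL1 cells, against 1117, 1102.8 and 1116.2 in uninduced ones. The TS fall passed the test (-0.44 ± 0.09, limma adjusted p = 0.000296) and the Su-DHL1 difference did not (-0.21 ± 0.09, limma adjusted p = 0.0774).

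The synthetases did not move as 1 block. TARS1 (threonine) was lower in all 3 settings (-0.53 at 84 h and -0.28 at 72 h in TS, -0.27 in Su-DHL1). VARS1, EPRS1 and IARS1 (valine, glutamate with proline, and isoleucine) passed the test at 84 h in TS cells (-0.54, -0.50 and -0.40) and not in the 72 h settings taken singly. AARS1 and GARS1 (alanine and glycine) were each lower at 84 h by less (-0.27 and -0.28). RARS1 (arginine) gave 669.2, 851 and 706.9 in hairpin cells at 84 h, against 589.6, 447.8 and 505.9 in uninduced cells, a rise of 0.52. HARS1 (histidine) gave 497.1, 528.9 and 461 in hairpin cells, against 437.8, 421 and 330.7 in uninduced cells, a rise of 0.32. SARS1 (serine) rose at 72 h in TS cells, to 1603.5, 1422.9 and 1429.5 in hairpin cells, against 1106, 1128.2 and 1221.5 in uninduced ones (0.36 ± 0.095), and in Su-DHL1 (0.30 ± 0.095). The hairpin and uninduced arrays did not overlap for these last 3 genes in the comparisons named.

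Of the 11 enzymes tested, 6 fell and 1 rose at 84 h, and enzymes of the proline and mitochondrial folate routes were among those that fell. ALDH18A1, which starts proline synthesis, gave 287.2, 280.1 and 304.9 in hairpin TS cells at 84 h, against 523.7, 689.6 and 545.3 in uninduced cells. At 72 h it gave 334.6, 324 and 314.3 with the hairpin, against 586.2, 509.1 and 514.5 without doxycycline, and in Su-DHL1 324.9, 319.5 and 406.7 with the hairpin, against 454.1, 486.7 and 554.1 without doxycycline. All 3 falls (-0.975, -0.705 and -0.50) were without overlap of the groups. SHMT2, which makes glycine and a one-carbon unit from serine in mitochondria, gave 886.7, 913.8 and 1087.6 in hairpin cells at 84 h, against 2041.9, 1954.4 and 2012.5 in uninduced cells (-1.05 ± 0.10). It also fell at 72 h in TS (-0.58 ± 0.10) and in Su-DHL1 (-0.29 ± 0.10). MTHFD2, the next enzyme of that route, was lower in the 3 settings (-0.32, -0.41 and -0.30). In Su-DHL1 its signals were 1663.3, 1835.7 and 1985.2 with the hairpin, against 2073.7, 2279.9 and 2404.6 without doxycycline. PYCR1, which finishes proline synthesis, gave 206.5, 198.3 and 193.6 in hairpin Su-DHL1 cells, against 272.4, 275.6 and 301.6 in uninduced ones, and fell there (-0.48) and in TS at 84 h (-0.44).

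Other enzymes rose in the same cells. CHAC1, which degrades glutathione and is a textbook ATF4 and CHOP target, gave 116.6, 156.3 and 159.7 in hairpin TS cells at 84 h, against 49.3, 26.4 and 94.7 in uninduced cells (1.31 ± 0.23, limma adjusted p = 7.04e-05). In Su-DHL1 it gave 323.1, 326.4 and 357.5 with the hairpin, against 152.1, 202.7 and 162.9 without doxycycline (0.93 ± 0.23). At 72 h in TS its groups did not overlap, 153, 155.4 and 145.3 with the hairpin against 108.7, 97.9 and 101.3 without doxycycline, while the adjusted p of limma was 0.0956. CTH, which releases cysteine from cystathionine, rose at 72 h in TS to 117.9, 114.6 and 148.5 in hairpin cells, against 58.6, 54.5 and 42.4 in uninduced cells (1.14 ± 0.20). In Su-DHL1 the CTH groups overlapped, 146.5, 70.4 and 121.9 with the hairpin against 72.8, 61.1 and 76.1 without doxycycline (0.565 ± 0.20, limma adjusted p = 0.0425). PCK2, the mitochondrial enzyme that makes phosphoenolpyruvate, gave 246.4, 268.4 and 184.1 in hairpin TS cells at 72 h, against 152.2, 197.2 and 149.5 in uninduced cells, a rise of 0.45 although 1 hairpin array lay under 1 uninduced array. PSPH, the last enzyme of serine synthesis, gave 162.7, 187.1 and 250.7 in hairpin Su-DHL1 cells, against 127.1, 146.2 and 117.2 in uninduced ones (0.565 ± 0.20). PHGDH, the first enzyme of serine synthesis, fell at 84 h in TS (-0.52). PSAT1, the middle one, rose at 72 h in TS by 0.33, with 542.7, 531.1 and 507.6 in hairpin cells, against 430.1, 430.7 and 394.4 in uninduced cells.

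ATF4 itself, the factor at the centre of the response, gave 1882.3, 1666.1 and 1502.5 in hairpin TS cells at 84 h, against 2530.9, 3491.5 and 2317.2 in uninduced cells. This fall of its mRNA was -0.70 ± 0.12 (limma adjusted p = 6.25e-05) and the groups did not overlap. The differences at 72 h were -0.24 ± 0.12 in TS and -0.05 ± 0.12 in Su-DHL1, and neither passed the test (limma adjusted p = 0.142 and 0.828). The arrays measure mRNA, and ATF4 is regulated mainly in its translation. HERPUD1, a factor of ER-associated degradation, rose in all 3 settings: it gave 464.3, 537.2 and 399.4 in hairpin TS cells at 84 h, against 320.8, 257.1 and 275.2 in uninduced cells, and 502.9, 563 and 610 in hairpin TS cells at 72 h, against 307, 321.9 and 290.2 in uninduced ones. In Su-DHL1 it gave 811.8, 841 and 652.3 with the hairpin, against 379.2, 611.6 and 563.5 without doxycycline. Its rises of 0.69, 0.84 and 0.58 were without overlap. XBP1, the ER stress factor, fell at 84 h (-0.645). PPP1R15A (GADD34), which removes the phosphate from eIF2, rose in Su-DHL1 to 175.5, 164.3 and 189.3 in hairpin cells, against 131.4, 120.8 and 141.4 in uninduced cells (0.40 ± 0.13). DDIT3 was not called in any of the 3 settings (-0.19, -0.02 and 0.27).

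Of the 6 transporters, 4 fell at 84 h and 0 rose. SLC1A5, the glutamine transporter ASCT2, gave 497, 590.7 and 543.8 in hairpin TS cells at 84 h, against 1170.2, 1079.4 and 1024.1 in uninduced cells. At 72 h it gave 798.4, 798.6 and 826.1 with the hairpin, against 1394.8, 1165.9 and 1328.7 without doxycycline, and in Su-DHL1 854.7, 1055.4 and 1064.7 with the hairpin, against 1255.1, 1376.8 and 1557.4 without doxycycline. It was lower without overlap in each setting (-0.99, -0.67 and -0.49). SLC7A5 (LAT1, which brings in large neutral amino acids) fell in TS at 84 h (-0.91) and 72 h (-0.35), and its partner chain SLC3A2 fell at 84 h (-0.61). SLC7A1, the arginine and lysine transporter, fell in TS at 84 h (-0.77) and 72 h (-0.39).

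**Figure D2:**
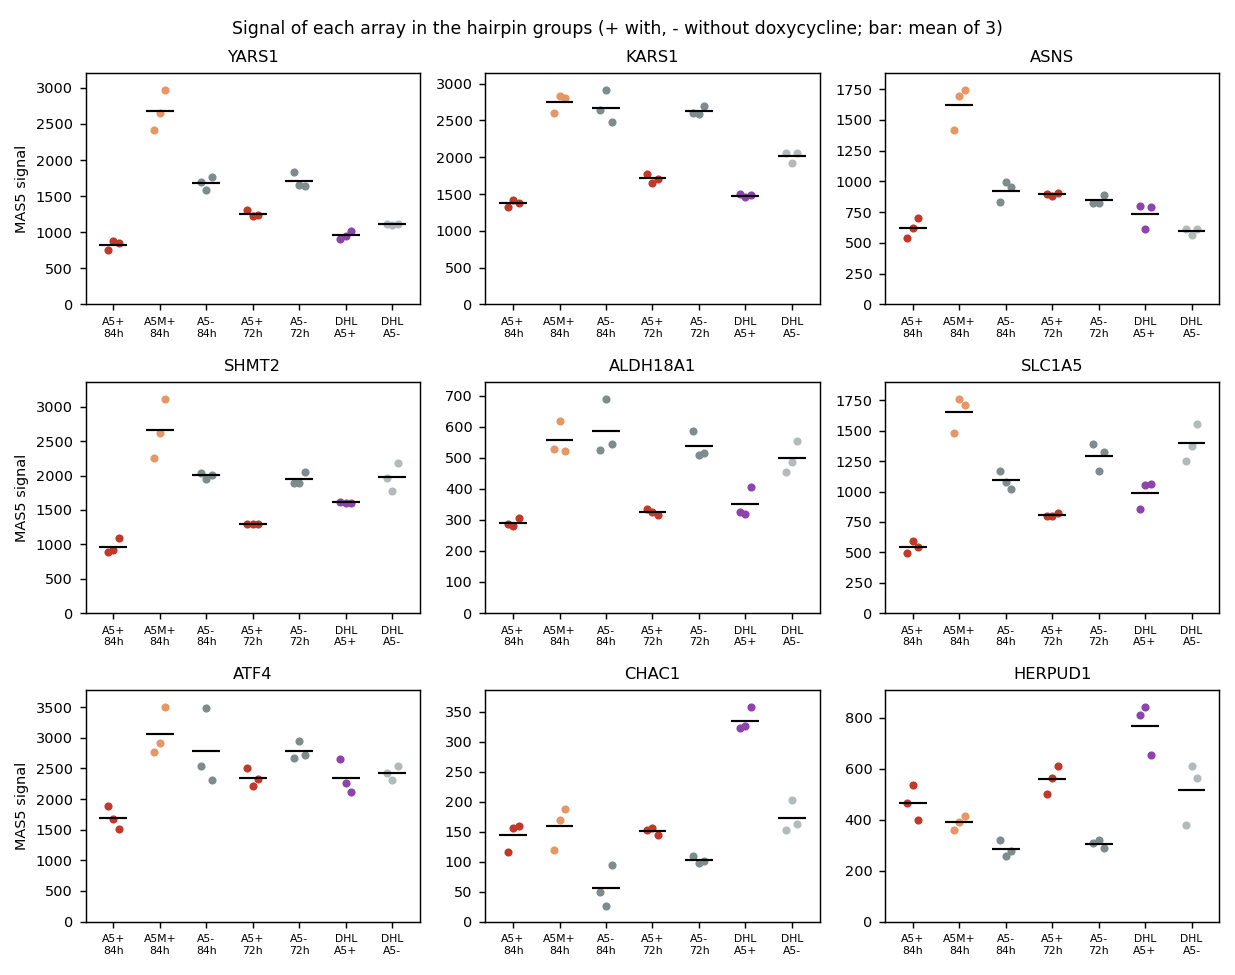
MAS5 signal of each array (points, linear axis from 0) and the mean of 3 (horizontal lines) for 9 genes in the 7 hairpin groups, where A5+ is the ALK hairpin with doxycycline, A5M+ the mutated hairpin with doxycycline and A5- uninduced cells. SLC1A5, KARS1 and ALDH18A1 are lower in each A5+ group than in its A5- group, and YARS1 and ASNS are highest in A5M+ cells.

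Over the average of the 3 settings the largest rises were CHAC1 (0.92 ± 0.135), CTH (0.70 ± 0.12), HERPUD1 (0.70 ± 0.08), PCK2 (0.40 ± 0.08) and PSPH (0.36 ± 0.12). The largest falls were ALDH18A1 (-0.73 ± 0.07), SLC1A5 (-0.72 ± 0.06), KARS1 (-0.67 ± 0.04), SHMT2 (-0.64 ± 0.06) and YARS1 (-0.56 ± 0.05). Leaving out 1 array at a time kept 22 of the 23 calls in every fit; the exception was PSAT1. With the ACTB 3'/5' ratio as a covariate 10 genes were called, 1 higher and 9 lower; HERPUD1 was still called, and CHAC1 (0.611, limma adjusted p = 0.0923), CTH (0.267, limma adjusted p = 0.393), PCK2, PSPH, SARS1 and PSAT1 were not. With that covariate 15 genes were called at 84 h and 7 at 72 h in TS, and the rises of CHAC1 and HERPUD1 at 84 h and of CTH and HERPUD1 at 72 h were not among them. The part of RNA quality in these rises was not tested beyond this. In TS the calls of AARS1, GARS1, HARS1, IARS1, MTHFD2, PYCR1 and VARS1 at 84 h, and of PCK2, PSAT1, SLC7A5 and TARS1 at 72 h, were lost in at least 1 fit that left out an array. In Su-DHL1, where the ratio was 1.36 ± 0.08 with the hairpin and 1.39 ± 0.03 without doxycycline (SD, n = 3 each), 11 genes were called with it and 13 without; leaving out single arrays gave 6 to 11 calls there. ALDH18A1, CHAC1, KARS1 and SLC1A5 were the 4 of those 13 called in each such fit.

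The mutated hairpin at 84 h was the series' other control, and it placed these genes differently. With doxycycline, A5M cells had 16 of the 40 genes higher and 0 lower than uninduced A5 cells, where 3.24% of all genes were called higher and 3.75% lower. The median was 0.32 over the 40 genes and 0.00 over all genes. Synthetases made up 9 of the 16 (of 15 tested), enzymes 5 (of 11), and SLC1A5 and PPP1R15A the rest. In 31 of the 40 genes the A5M group had the highest mean of the 3 groups at 84 h. Among all 7 hairpin groups it had the highest mean for 25 genes, and the hairpin cells at 84 h had the lowest for 21. Highest and lowest groups were not counted over all genes, so these counts only describe the 40 genes.

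ASNS, which makes asparagine and is a standard readout of the amino acid response, gave 1422.3, 1697.5 and 1740.8 in A5M cells, against 829.1, 992.3 and 954.5 in uninduced A5 cells (0.80 ± 0.11, limma adjusted p = 4.43e-05). CHAC1 gave 119.4, 169.7 and 187.7 in A5M cells, against 49.3, 26.4 and 94.7 in uninduced cells (1.43 ± 0.23, limma adjusted p = 0.000365). YARS1 gave 2421.8, 2647.8 and 2965.6 in A5M cells, against 1702.2, 1586.5 and 1772.2 in uninduced cells (0.66 ± 0.09). These 3 genes were higher in each A5M array than in each uninduced one. AARS1 gave 1264.9, 1292.3 and 1589 in A5M cells, against 907.2, 964.8 and 757.2 in uninduced cells (0.65 ± 0.11). VARS1 gave 320.5, 312.1 and 356.5 in A5M cells, against 241.9, 230.6 and 151.2 in uninduced cells (0.66 ± 0.15). Both were again without overlap. The remaining called genes were SLC1A5, GARS1, SARS1, PPP1R15A, WARS1, PSAT1, PHGDH, SHMT2, EPRS1, NARS1 and CARS1, with differences of 0.33 to 0.59. ATF4 mRNA did not pass the test (0.15 ± 0.12, limma adjusted p = 0.557). ACTB 3'/5' ratios of the A5M and uninduced groups were 1.52 ± 0.08 and 1.54 ± 0.05 (SD, n = 3 each), and all but CARS1 of the 16 were called with the ratio as a covariate. Leaving out 1 array at a time gave 12 to 14 calls, and a fit on the 2 groups alone called 6. CARS1, EPRS1, NARS1, PHGDH, PPP1R15A, SHMT2, VARS1 and WARS1 lost their call in at least 1 fit without an array.

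Against A5M cells, hairpin cells at 84 h had 28 of the 40 genes lower and 1 higher, with 20% of all genes called lower and 23.3% higher and medians of -0.70 and 0.06. Both comparisons with A5M share the A5M arrays, so their values are given side by side and not as independent counts. The 5 most negative differences between hairpin and A5M cells were those of YARS1 (-1.68 ± 0.09), SLC1A5 (-1.58 ± 0.10), SHMT2 (-1.45 ± 0.10), ASNS (-1.37 ± 0.11) and VARS1 (-1.201 ± 0.15). SLC1A5 gave 497, 590.7 and 543.8 in hairpin cells, against 1478.7, 1762.7 and 1714.9 in A5M cells, and SHMT2 gave 886.7, 913.8 and 1087.6 in hairpin cells, against 2255.8, 2625.4 and 3114.7 in A5M cells. No array of the hairpin group reached an A5M array for either gene. CHAC1, higher in hairpin cells than in uninduced cells, did not pass the test against A5M cells (-0.12 ± 0.23, 95% interval -0.60 to 0.36), and neither did CTH (-0.09 ± 0.20, interval -0.50 to 0.33). HERPUD1 was not called higher than in A5M cells either. Its A5M arrays lay over the uninduced ones without overlap, a difference that did not pass the test (0.44 ± 0.145, limma adjusted p = 0.0694). KARS1 and ALDH18A1 were lower against either control (-0.99 and -0.91 against A5M cells), and the A5M group did not pass the test against uninduced cells for them (0.04 and -0.07). RARS1 was the single gene higher than in A5M cells (0.375 ± 0.13, limma adjusted p = 0.0227), with signals of 669.2, 851 and 706.9 in hairpin cells, against 554.2, 541.1 and 607 in A5M cells. Its call was lost in 3 of the 6 fits that leave out an array (adjusted p of limma up to 0.135). The calls of DDIT3 and SLC7A11 as lower were each lost in 4 of these fits (adjusted p of limma up to 0.132 and 0.145). Of the 29 calls against A5M cells, 26 held in every such fit.

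**Figure D3:**
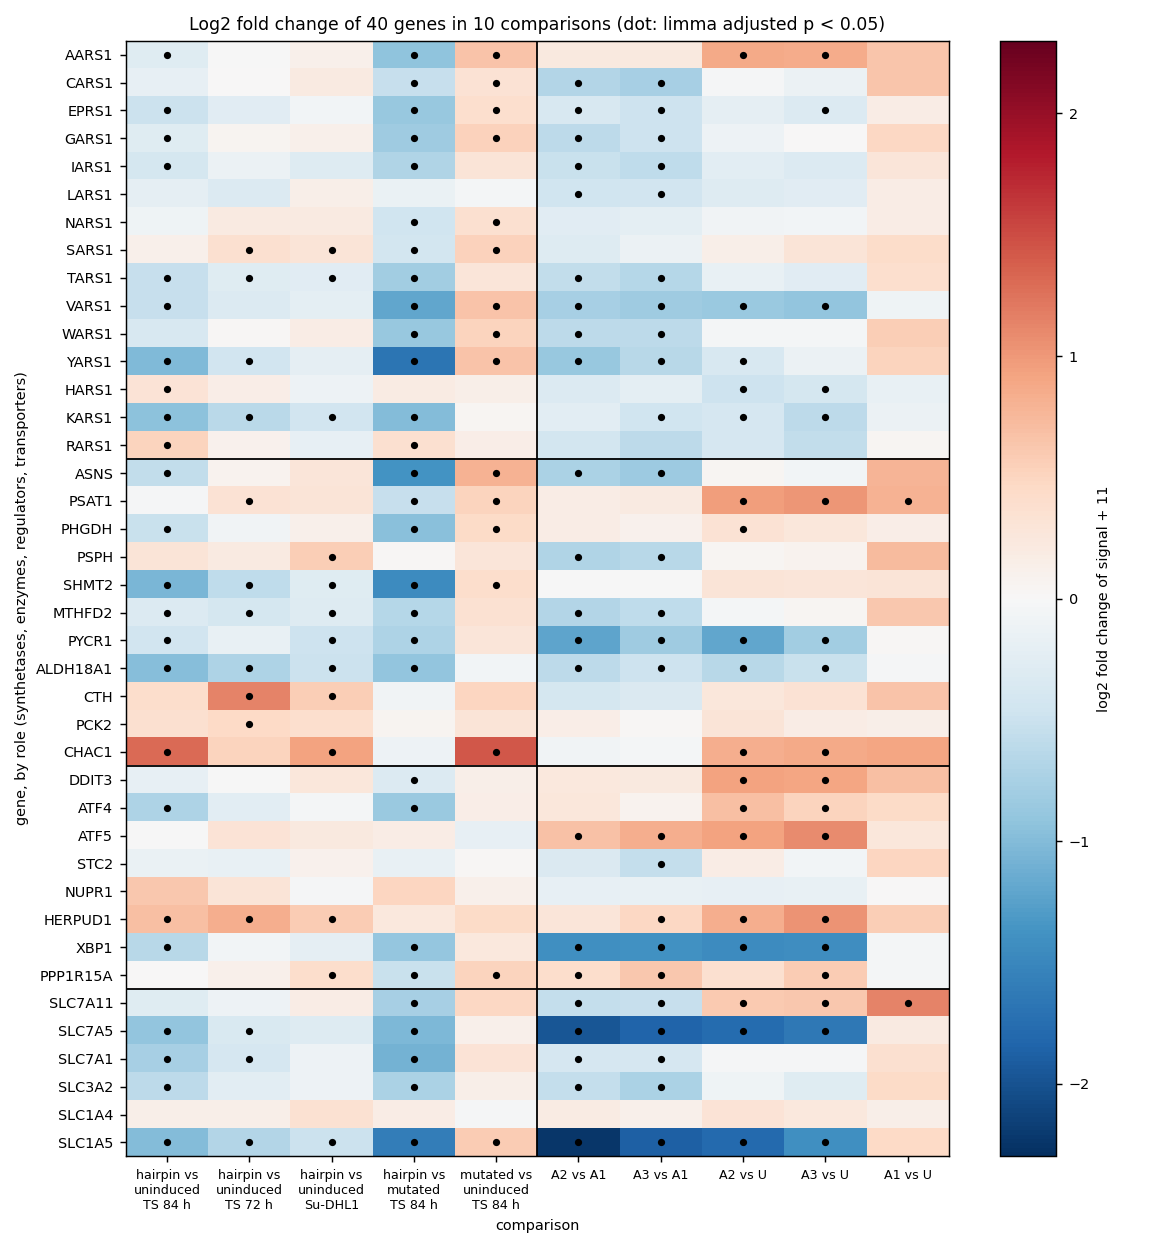
Log2 fold change of signal + 11 (colour scale) for the 40 genes (rows, by role) in 10 comparisons (columns), with a dot where limma's adjusted p was under 0.05. The hairpin-against-mutated column is mostly blue (28 lower) and the mutated-against-uninduced column red (16 higher), while SLC1A5, SLC7A5 and XBP1 are dark blue in the columns of A2 and A3.

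The hairpin responses were then compared between settings. At 84 h against 72 h in TS cells, 2 of the 40 responses differed (1.27% of all genes), both more negative at 84 h: YARS1 (-0.585 ± 0.12, limma adjusted p = 0.0111) and ASNS (-0.65 ± 0.155, limma adjusted p = 0.0366). ASNS at 72 h gave 896.3, 883 and 905.2 in hairpin cells, against 822.4, 826.8 and 890.6 in uninduced cells, and at 84 h 543.1, 622.1 and 701.5 in hairpin cells, against 829.1, 992.3 and 954.5 in uninduced cells. Its groups overlapped at 72 h and not at 84 h. The ASNS call was lost in 10 of the 12 fits that leave out 1 array. Between Su-DHL1 and TS at 72 h, 0 of the 40 responses differed in limma (2.89% of all genes did), with 1 at an unadjusted p under 0.05, SHMT2, and differences of -0.57 to 0.445. The half-width of the 95% intervals, which are not adjusted for the number of genes, was 0.215 to 0.802. A call after adjustment needed a larger difference than that. SHMT2 differed by 0.296 (95% interval 0.002 to 0.590) and was not called (limma adjusted p = 0.362). Differences of this size could thus be missed with these arrays.

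Before induction the lines themselves differed. In uninduced cells at 72 h, 5 of the 40 genes were higher in Su-DHL1 and 8 lower than in TS (all genes 10.8% and 10.4%). ATF5, an ATF4-related factor, gave 282.8, 329.4 and 320.7 in Su-DHL1, against 756, 816.5 and 646.6 in TS (-1.22 ± 0.15, limma adjusted p = 1.49e-06). YARS1, ASNS, AARS1 and KARS1 were lower in Su-DHL1 (-0.61, -0.50, -0.48 and -0.38). HERPUD1, CHAC1, WARS1 (tryptophan), RARS1 and HARS1 were higher by 0.71, 0.68, 0.57, 0.55 and 0.44. WARS1 gave 1492, 1576.2 and 1248.8 in Su-DHL1, against 841.9, 1095.4 and 963.9 in TS, and AARS1 gave 574, 570 and 619.6 in Su-DHL1, against 825.1, 837.5 and 813.9 in TS. RARS1 gave 1150.8, 1095.4 and 825.4 in Su-DHL1, against 712.2, 661.3 and 699.8 in TS, and HARS1 gave 799.9, 888.7 and 769.8 in Su-DHL1, against 575.6, 592.8 and 634.5 in TS. None of these 4 overlapped between the lines. Of the 13 calls, 8 held in every fit that left out an array; those of CHAC1, PSAT1, SARS1, SLC7A5 and WARS1 did not.

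In TS cells given the compounds for 6 h, A2 and A3 together had 24 of the 40 genes lower and 3 higher than A1 (16.3% and 21.9% of all 8594 genes tested), with a median of -0.43 against 0.03 over all genes. Taken singly, A2 had 20 lower and 2 higher than A1 (14.3% and 19.1%), and A3 had 22 lower and 3 higher (14.2% and 18.5%). Against U the picture was another: A2 had 9 higher and 9 lower (19.7% and 15.4%), with a median of -0.04, and A3 also had 9 higher and 9 lower (18.8% and 14.9%), with a median of -0.05. The 2 sets of comparisons share the A2 and A3 arrays. With the ACTB 3'/5' ratio as a covariate 15 genes were called against A1, 2 higher and 13 lower, and 18 (A2) and 16 (A3) against U.

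The transporters SLC1A5 and SLC7A5 fell most against A1. SLC1A5 gave 506.1, 589.4 and 443.8 with A2 and 691.6, 568.1 and 722.7 with A3, against 2271.4, 2354.2 and 2715 with A1 and 1927.3, 1649.9 and 1762.2 in U. Against A1 the difference was -2.23 ± 0.13 for A2 and -1.87 ± 0.13 for A3, and against U -1.78 ± 0.13 and -1.42 ± 0.13. SLC7A5 gave 690.9, 635.4 and 544.6 with A2 and 752.5, 674.4 and 627.7 with A3, against 2152.7, 2309.1 and 3032.2 with A1 and 2323.5, 2090.1 and 2041.7 in U, which was -1.77 ± 0.13 and -1.64 ± 0.13 against U. The A2 and A3 arrays of both transporters lay far under every A1 and U array. XBP1 gave 169.4, 179.7 and 200 with A2 and 165.7, 131.6 and 291.5 with A3, against 550.5, 396.5 and 581.5 with A1 and 540.4, 507.3 and 500.7 in U (-1.44 ± 0.21 and -1.42 ± 0.21 against U). PYCR1 gave 154.4, 120.5 and 150.6 with A2 and 220.3, 177.2 and 174.3 with A3, against 269.8, 441.5 and 336.6 with A1 and 298.9, 338.6 and 379.1 in U (-1.196 ± 0.17 and -0.80 ± 0.17). Neither gene overlapped between an inhibitor and a control. VARS1 gave 175.9, 144.7 and 168.2 with A2 and 157.3, 155 and 153.8 with A3, against 298.1, 304.8 and 245.7 with A1 and 266.7, 321.1 and 317.7 in U (-0.85 ± 0.13 and -0.91 ± 0.13). ALDH18A1, KARS1 and HARS1 also fell with both compounds against U (-0.63, -0.38 and -0.48 with A2, -0.51, -0.59 and -0.40 with A3). YARS1 fell with A2 (-0.37) and EPRS1 with A3 (-0.31). Against A1, YARS1 and ASNS were lower with both compounds: YARS1 gave 1205.3, 1032.9 and 1167.2 with A2 and 1215.8, 1273 and 1565.2 with A3, against 1892.5, 2275.8 and 2119.1 with A1, and ASNS gave 748.6, 608.6 and 550.3 with A2 and 533.2, 555.5 and 675.1 with A3, against 896.5, 1338.3 and 972 with A1. Leaving out single arrays, the calls of HARS1, HERPUD1, NARS1, PSPH and SLC7A11 against A1 in the average of A2 and A3 were lost in at least 1 fit, as were those of IARS1, PPP1R15A, PSPH and SLC7A11 for A2 against A1, of GARS1, HERPUD1, IARS1, LARS1, PSPH and SLC7A11 for A3 against A1, of PHGDH, SLC7A11 and YARS1 for A2 against U and of EPRS1, HARS1 and SLC7A11 for A3 against U.

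Several stress regulators were higher with A2 and A3 than in U, and not all of these were higher than with A1. Of the same list STC2 and XBP1 were lower than with A1 in the average of A2 and A3 (-0.44 and -1.40). ATF5 gave 1049.3, 1179 and 1064.9 with A2 and 1296.1, 1164.5 and 1212.5 with A3, against 664, 643.7 and 745.6 with A1 and 566.3, 563.2 and 581.8 in U, and was higher than in either control (against A1 0.67 ± 0.10 and 0.83 ± 0.10, against U 0.93 ± 0.10 and 1.09 ± 0.10). DDIT3 gave 237.4, 245.2 and 255 with A2 and 220, 280.8 and 227.1 with A3, against 214.4, 211.2 and 190.9 with A1 and 134.3, 124.8 and 112.5 in U. HERPUD1 gave 308.6, 417.5 and 479 with A2 and 512, 486.6 and 378 with A3, against 325.6, 332.8 and 317.6 with A1 and 202, 201.9 and 247.4 in U. Both were higher than in U with each compound (DDIT3 0.93 and 0.91, HERPUD1 0.84 and 1.04), while against A1 the DDIT3 differences of 0.25 and 0.22 did not pass the test. HERPUD1 did not pass it for A2 against A1 (0.27, limma adjusted p = 0.197). ATF4 gave 3543.4, 3066.2 and 2851.9 with A2 and 2797.6, 2612.9 and 2907.2 with A3, against 2714.4, 2438.1 and 2726.1 with A1 and 1874.1, 1894.2 and 2047.5 in U. It rose against U by 0.69 ± 0.11 and 0.51 ± 0.11 (limma adjusted p = 7.53e-05 and 0.00124). Against A1 the ATF4 difference in the average of A2 and A3 did not pass the test (0.17 ± 0.09, limma adjusted p = 0.17). PPP1R15A was higher than with A1 under both compounds (0.41 and 0.62), and its A2 call was lost in 5 of the 6 fits leaving out an array (limma adjusted p = 0.056 to 0.165). It gave 152.4, 155.5 and 126.7 with A2 and 181.8, 148.9 and 176.2 with A3, against 113.2, 111.8 and 93.5 with A1 and 97.2, 132.1 and 100.3 in U, and passed the test against U with A3 (0.58 ± 0.15) and not with A2 (0.37 ± 0.15). A second PPP1R15A probe set gave 1.835 with A2 and 1.833 with A3 against U, past the threshold in the fit of all probe sets.

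Some enzymes, 1 synthetase and 1 transporter also rose against U. PSAT1 gave 591.8, 534.5 and 638.3 with A2 and 652.2, 606.7 and 567.4 with A3, against 486.4, 561.1 and 523.6 with A1 and 303.1, 247.2 and 349 in U (0.96 ± 0.13 and 1.01 ± 0.13 against U). AARS1 gave 1218.1, 1509 and 1249.3 with A2 and 1206.5, 1399.7 and 1341 with A3, against 987.9, 1443.7 and 992.5 with A1 and 703.9, 688.5 and 770.5 in U (0.86 ± 0.14 and 0.86 ± 0.14). CHAC1 gave 184.3, 188.7 and 145.6 with A2 and 178.4, 181.1 and 168.4 with A3, against 180.9, 133.7 and 244.5 with A1 and 81.8, 120.5 and 76.7 in U (0.84 ± 0.19 and 0.87 ± 0.19). In all 3 genes the A2, A3 and A1 arrays lay over every U array. PHGDH rose with A2 (0.33, limma adjusted p = 0.0374). SLC7A11, the cystine transporter, rose with both (0.60 ± 0.19 and 0.61 ± 0.19), a call that was lost in 4 of the 6 fits leaving out an array for either compound. Against A1, with A2 and A3 averaged, SLC7A11 was instead lower (-0.54 ± 0.165, limma adjusted p = 0.0153). PSAT1, AARS1, CHAC1 and PHGDH did not pass the test in that comparison (0.19, 0.23, -0.06 and 0.13).

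**Figure D4:**
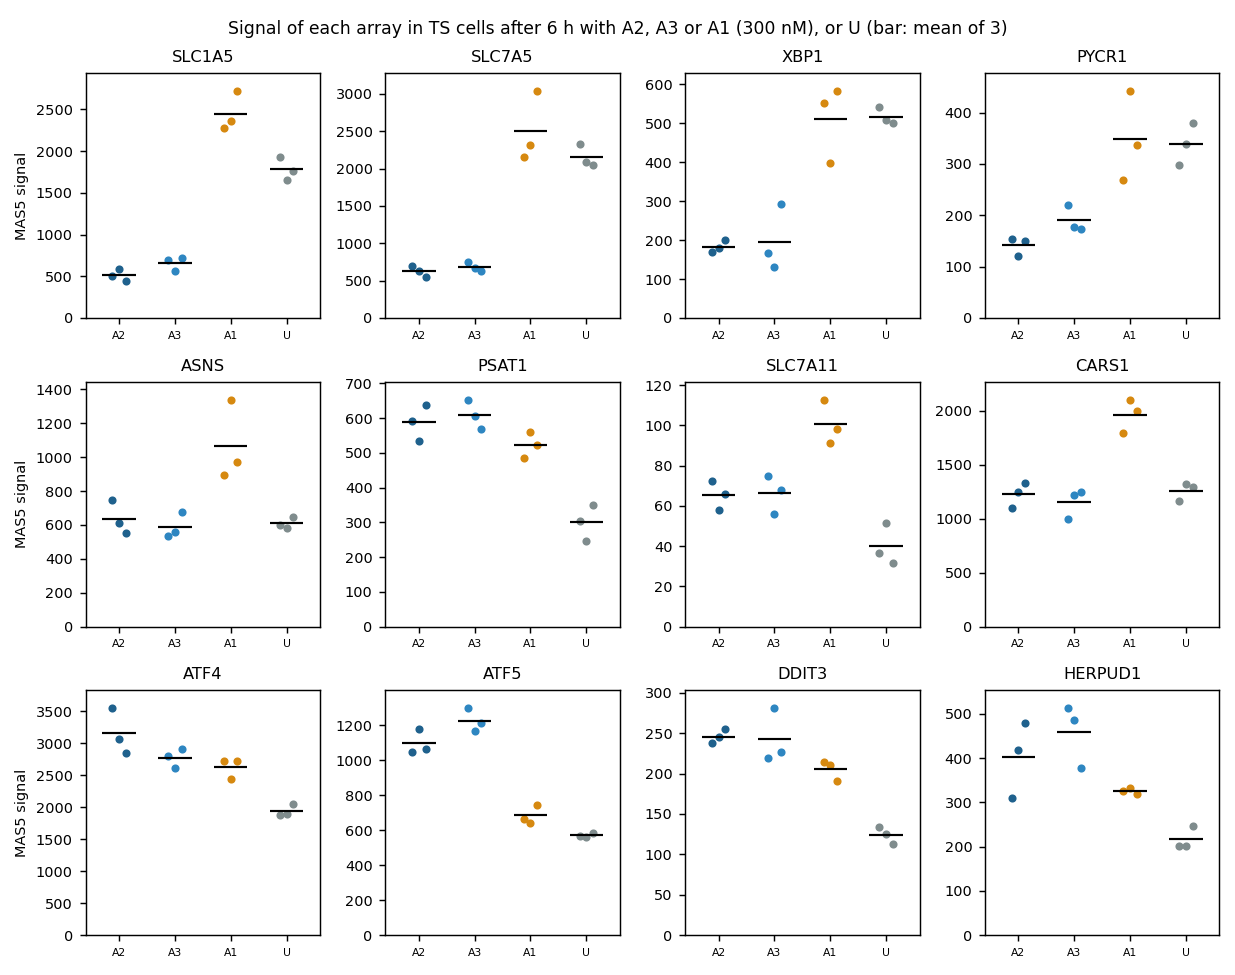
MAS5 signal of each array (points, linear axis from 0) and the mean of 3 (horizontal lines) for 12 genes in TS cells with A2, A3, A1 or U. SLC1A5, SLC7A5, XBP1 and PYCR1 are low with A2 and A3, ASNS and CARS1 are highest with A1, and PSAT1, SLC7A11 and DDIT3 are lowest in U.

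Between the inhibitors no difference among the 40 genes passed the test. A3 against A2 gave 0 calls among the 40 genes in limma (13 of all 8594 genes, 0.151%), and 3 of the 40 had an unadjusted p under 0.05. SLC1A5 differed by 0.36 ± 0.13 (95% interval 0.09 to 0.63), PYCR1 by 0.40 ± 0.17 (interval 0.05 to 0.75) and KARS1, lower with A3, had a difference of -0.22 ± 0.10 (interval -0.43 to -0.003). The half-width of the intervals was 0.212 to 0.56 over the 40 genes, and a p that misses the threshold does not show that the compounds act alike. With the 3 compounds there are 3 pairs, and p-values were adjusted over all genes within each pair.

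A1 itself differed from U in 3 of 8594 genes (0.0349%), and 2 of these 3 were among the 40. SLC7A11 gave 112.6, 91.4 and 97.9 with A1, against 36.6, 51.3 and 31.6 in U (1.15 ± 0.19, limma adjusted p = 0.0413), and PSAT1 486.4, 561.1 and 523.6 with A1, against 303.1, 247.2 and 349 in U (0.79 ± 0.13, limma adjusted p = 0.0413). For neither gene did the groups overlap. Of the other SLC7A11 probe sets, 1 gave 1.64 and was called, and 1 gave 0.205 and was not. In 26 of the 40 genes every A1 array was over every U array and in 0 every one was under, where 6.04% of all genes had all A1 arrays over. The median was 0.38 over the 40 genes and -0.01 over all genes, and 23 of the 40 had an unadjusted p under 0.05, all of them higher with A1. ASNS gave 896.5, 1338.3 and 972 with A1, against 599, 579.9 and 649.1 in U (0.78 ± 0.15, limma adjusted p = 0.0719), and CARS1 (cysteine) 1792.9, 2098.6 and 1994.9 with A1, against 1161.4, 1318.4 and 1288.6 in U (0.64 ± 0.12). DDIT3 and MTHFD2 had differences of 0.68 ± 0.13 and 0.625 ± 0.12, each with limma adjusted p = 0.0719. Both calls were kept with a pseudocount of 1 or 64 and with the mean of probe sets, and 1 or both were lost under the other settings. SLC7A11 lost its call whichever of the 6 A1 and U arrays was left out, and PSAT1 in 5 of the 6 fits (limma adjusted p = 0.0586 to 0.202 and 0.0787 to 0.164). Leaving out an array gave 0 or 1 call among the 40, the fit on A1 and U alone 0, and the fit with the ACTB ratio as covariate 0 (ratios of 1.33 ± 0.07 with A1 and 1.18 ± 0.12 in U, SD, n = 3 each). The median difference stayed at 0.33 to 0.39 when single arrays were left out.

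**Figure D5:**
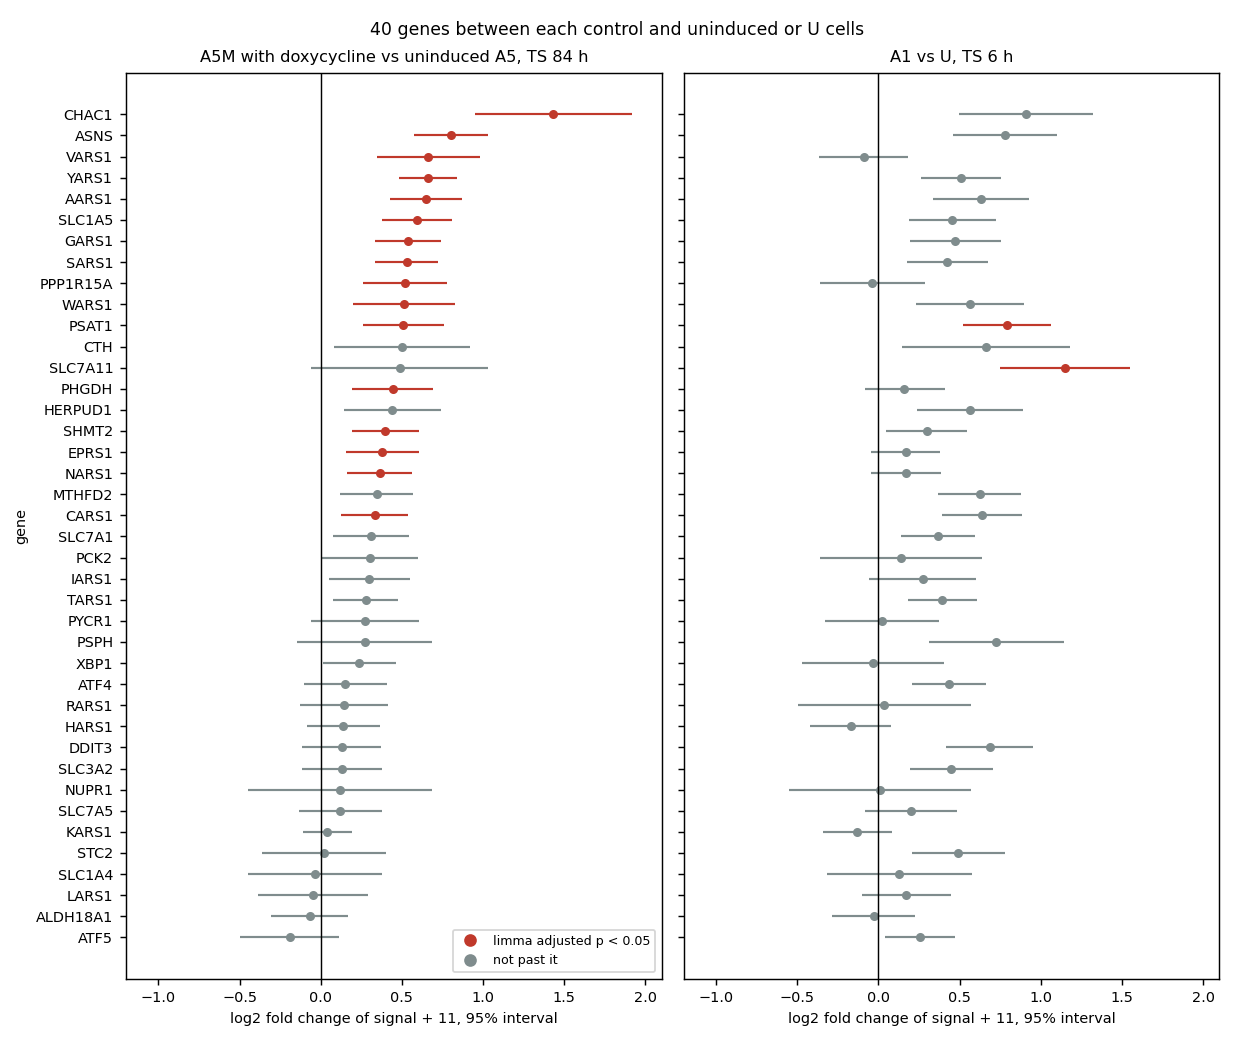
Log2 fold change of signal + 11 with its 95% interval for the 40 genes, in A5M cells with doxycycline against uninduced A5 cells (left) and in A1 against U (right), red where limma's adjusted p was under 0.05. Most points lie to the right of 0 in both panels, with medians of 0.32 and 0.38, and 16 and 2 are red.

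Further genes of the same pathways were counted from lists, against uninduced cells in the average of the 3 hairpin settings, where 29.1% of all genes rose and 21.7% fell. A count near those shares is no result about its list. Of 13 other ATF4 targets 3 rose and 3 fell (GDF15 0.90, ATF3 -0.89, EIF4EBP1 -0.73, CEBPB -0.68). Of 14 genes of folate, glycine, proline and glutamine metabolism 2 rose and 8 fell (TYMS -1.39, MTHFD1 -0.80, MAT2A -0.62, GLUD1 -0.49). Of 9 mitochondrial synthetases 3 rose and 3 fell (NARS2 -0.84, IARS2 -0.61, FARS2 0.60, CARS2 0.46). Of 12 genes of eIF2 kinases, eIF2 and eIF2B, with the GCN2 inhibitor IMPACT among them, 2 rose and 4 fell (EIF2S1 -0.755, EIF2B3 -0.46, IMPACT 0.44, EIF2S2 -0.26). Of 19 ER chaperones and unfolded protein response genes 6 rose and 5 fell (CREB3L2 0.74, CRELD2 0.58, HSPA5 0.43, HSP90B1 -0.42). Of 10 other amino acid transporters 3 rose and 4 fell (SLC43A3 -1.22, SLC1A3 -0.99, SLC36A1 0.99, SLC6A6 0.73), of 8 NRF2 targets 1 rose and 3 fell (NQO1 1.38, ME1 -0.76, GCLM -0.60, TXNRD1 -0.38), and of 2 further cytosolic synthetases FARSA fell (-0.43). Of 5 myeloid markers tested S100A8, CSF1R and S100A12 rose and CD163 fell in the same average (1.49, 1.315, 0.38 and -0.73). The summed signal of all 8 was 7452.2 to 9423.6 in hairpin TS cells at 84 h, against 2987.3 to 3374.1 in uninduced cells, and 6247 to 7069.6 in hairpin TS cells at 72 h, against 3654.9 to 3707 in uninduced cells. In Su-DHL1 it was 1727.3 to 2022.3 in hairpin cells, against 2176.2 to 2187.2 in uninduced cells. S100A8 alone had a group mean of up to 6792.9, while those of CD14, LYZ and FCGR1A were at most 10.2, 3.4 and 17.7. The part of these markers in the results was not tested.

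In A5M against uninduced cells, where 3.24% of all genes were higher and 3.75% lower, the other ATF4 targets split, 4 higher and 2 lower of 13. TRIB3, a pseudokinase induced by CHOP and ATF4, was higher by 1.21 ± 0.11 and GOT1 by 0.78 ± 0.12, while NDRG1 and DDIT4 were lower (-1.29 ± 0.14 and -0.89 ± 0.08). Of 19 ER chaperones 3 were higher and 0 lower (HSPA5 0.85, SDF2L1 0.545, HYOU1 0.495). Of the eIF2 genes EIF2B3 and EIF2S1 were higher (0.71 and 0.35), of the transporters SLC38A1 (0.425), and of the metabolic list CTPS1 was higher and GLUL lower (0.70 and -0.42). The 9 mitochondrial synthetases (LARS2 -0.24, FARS2 0.19) and the 8 NRF2 targets (ME1 -0.51, TXNRD1 0.30) gave 0 calls in limma, with 1 and 3 at an unadjusted p under 0.05. In A1 against U these lists gave 0 calls; TRIB3 and GOT1 differed by 0.60 ± 0.12 and 0.60 ± 0.13 (limma adjusted p = 0.0735 and 0.118), and 7 of the 12 other ATF4 targets tested had an unadjusted p under 0.05, of which NDRG1 was lower (-0.40), where 767 of all 8594 genes had one.

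With A2 against U, where 19.7% of all genes rose and 15.4% fell, 3 of 12 other ATF4 targets rose and 4 fell (NDRG1 -1.50, CEBPB -1.42, GOT1 0.91, ATF3 -0.645). Of 15 metabolic genes 0 rose and 6 fell (PYCR3 -1.83, CTPS1 -1.66, GCSH -1.12, MAT2A -1.01). Of 20 ER chaperones 5 rose and 3 fell (EDEM1 1.34, SDF2L1 -1.17, CREB3L2 0.85, SEL1L 0.69). Of 12 eIF2 genes 2 rose and 4 fell (EIF2S1 -1.10, EIF2S3 1.07, EIF2B3 -0.80, EIF2S2 -0.66). Both further cytosolic synthetase genes fell (FARSA -0.999, the scaffold AIMP1 -0.54), and of 9 mitochondrial synthetases 1 rose and 2 fell (LARS2 -1.03, NARS2 -0.90, HARS2 0.48). With A2 and A3 averaged against A1, where 21.9% of all genes rose and 16.3% fell, of the 12 other ATF4 targets GOT1 rose (0.28) and 7 fell (CEBPB -1.51, NDRG1 -1.035, ATF3 -0.73, TRIB3 -0.71). Of 15 metabolic genes 1 rose and 7 fell in that comparison, of 20 ER chaperones 5 rose and 3 fell, of 12 eIF2 genes 1 rose and 4 fell, and of 9 mitochondrial synthetases 2 rose and 2 fell.

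Genes with several probe sets did not always agree, and those named here were picked after their values were seen. For EPRS1 another probe set was higher with A2 and A3 than in U (0.897 and 0.748), while the brighter one used here gave -0.20 and -0.31. For SLC1A4, a neutral amino acid transporter that was not called in any of the 3 hairpin settings, another probe set was higher in hairpin cells in the average (0.885, called) and the one used here gave 0.20 (not called). For STC2, a secreted glycoprotein induced by ER stress, another probe set was lower (-0.426, called) and the one used here gave -0.075 (not called). VARS1 fell by the probe set used (-0.36) and its other probe set gave -0.04. NUPR1, a stress-induced chromatin protein, was dim and not called in the average, at 62.2, 73.1 and 61.8 in hairpin cells at 84 h, against 25, 54.8 and 41.3 in uninduced cells. Probe sets of genes with near-identical copies, such as PSPH, SLC7A5 and CBS with their pseudogenes or duplicates, may also bind those copies.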

How the data were processed

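Total RNA of 33 cell line samples was hybridised to Affymetrix human genome arrays, 1 array a sample. The deposited values are linear intensity signals of 22283 probe sets. Per the submitters' processing notes the tool was MAS5, whose version is not given in the sources used here. Present calls were not used here. Values were not rescaled. After 68 control probe sets were left out, 19065 probe sets had 1 gene symbol, 1043 several and 2107 none in the platform annotation. The members and lists were chosen with earlier results of these data known.

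log2(signal + 11) was modelled with limma 3.58.1 in R 4.3.3 (lmFit, contrasts, eBayes with trend), separately for the 21 hairpin arrays (9101 genes, 14 residual degrees of freedom) and the 12 compound arrays (8594 genes, 8 residual degrees of freedom). The pseudocount of 11 comes from the 20th percentile over the whole table (10.8). Probe sets at or over the 40th percentile of the array on 3 or more arrays of a fit were kept, and the brightest of a gene was used. P-values were adjusted over all genes in each comparison, with 0.05 as the threshold. Every array is listed for ALK, ATF4 and the genes among the 5 highest or lowest called fold changes of a comparison, in that comparison. Some genes are also listed where they were not called, such as CHAC1 at 72 h in TS, YARS1 in Su-DHL1 and ASNS in A1 against U. This rule does not cover those listings. NUPR1 and CARS1 were added after their values were seen. Of each further list up to 4 called genes with the largest change are named, or the 2 largest where none was called. The fits were tested on simulated data.

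Replicate numbers did not pair the samples: the correlation of same-numbered deviations ran from -0.206 to 0.108 over 33 pairs, with 2 over 0.1. Alternatives were the pseudocount (1 and 64), the filter (none, or the 60th percentile), quantile normalization, the mean of probe sets, the groups compared alone, the ACTB ratio as a covariate, the replicate number as a block, and leaving out each array. Motifs were searched in RefSeq promoter windows (GRCh38.p14) with Python 3.11.15.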

Additional observations from a re-analysis of the deposited data

Results flagged for a closer look

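The hairpin response of 2 genes differed between 84 h and 72 h in TS cells, by a test of the difference itself in the limma fit. For YARS1 the difference was -0.585 on the log2 scale (limma adjusted p = 0.0111), from responses of -1.02 ± 0.09 at 84 h and -0.44 ± 0.09 at 72 h. For ASNS it was -0.647 (limma adjusted p = 0.0366), from -0.57 ± 0.11 at 84 h and 0.08 ± 0.11 at 72 h. Each response rests on 3 arrays with doxycycline and 3 without, and the 84 h and 72 h groups each have their own uninduced arrays. The ASNS call was lost in 10 of the 12 fits that leave out 1 array, and the YARS1 call in 0. The cause of the difference was not tested.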

How the results depend on the processing

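Of 267 counts of calls under an alternative, 234 were within 1.5 times the reported count and 33 were not. Over 246 called pairs of gene and comparison, 4139 alternative values were computed: 3752 kept the direction and the call, 386 kept the direction and lost the call, and 1 reversed. The reversed value was EPRS1 in A3 against U, 0.182 with the mean of its probe sets and -0.31 with the brightest. With the ACTB ratio as a covariate the calls numbered 10 in the average of the 3 hairpin settings, 15 at 84 h and 7 at 72 h in TS, 15 for A2 and A3 averaged against A1, 13 for A2 against A1, 15 for A3 against A1 and 0 for A1 against U. Fitting only the groups compared gave 6 calls for A5M against uninduced cells and 0 for A1 against U. For A1 against U there were 0 calls with no filter and with quantile normalization, 1 with the 60th percentile filter and 4 with the mean of probe sets; for the 84 h and 72 h difference the mean of probe sets gave 4. Leaving out 1 array at a time gave 22 to 25 calls in the hairpin average, 20 to 23 at 84 h, 10 to 12 at 72 h in TS, 6 to 11 in Su-DHL1, 26 to 29 against A5M cells, 12 to 14 for A5M against uninduced cells, 1 to 2 for the time difference, 9 to 13 between the lines, 23 to 27 for A2 and A3 averaged against A1, and 0 to 1 for A1 against U. The replicate number did not pair the samples; with the replicate block the calls were 23 (average), 23 (84 h), 14 (72 h TS), 14 (Su-DHL1), 28 (against A5M), 15 (A5M against uninduced), 0 and 2 (line and time differences), 14 (between lines), 26, 22 and 24 (against A1: average, A2, A3), 0 (A3 against A2), 2 (A1 against U) and 18 for each inhibitor against U. The cause of each change was not tested, except that leaving out arrays or groups leaves fewer samples. Dim genes limit what can be read: CBS and VLDLR did not pass the filter, and folds of dim genes such as NUPR1 are understated.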
